A study of Mus musculus with 12 samples.

Results

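The 10 genes described here belong to the NRF2 pathway of antioxidant defence. They comprise the regulators *Nfe2l2* and *Keap1*, the heme oxygenase gene *Hmox1*, the glutathione genes *Gclc*, *Gclm* and *Gsr*, the thioredoxin and peroxiredoxin genes *Txnrd1*, *Srxn1* and *Prdx1*, and *Osgin1*. They were chosen by symbol from a table of read counts that lists 54532 genes, and all 10 were found and were among the 14894 genes tested. Cells from the bone marrow of wild-type (WT) C57BL/6 mice were cultured in RPMI medium with serum, GM-CSF and IL-6, a cocktail under which immunosuppressive myeloid cells form, and were harvested on day 5 for bulk RNA-seq. The medium held vehicle (0.1% DMSO) for 4 libraries, 10 µM indole-3-propionic acid (IPA), a tryptophan metabolite made by gut bacteria, for 4 others and 50 µM IPA for the last 4, with vehicle or IPA renewed on day 3. The labels do not say whether the libraries of a group came from separate mice or cultures, so the p-values measure only the spread between these libraries, which may be technical. The labels also do not say whether the cultures with IPA held DMSO, so the comparisons with vehicle may differ in DMSO as well. The comparisons asked what IPA at each dose did to these genes. The paper reports that viability in this culture assay fell slightly at the higher dose. For that reason its own RNA-seq analysis centred on the lower dose. Whether viability had a part in the changes at 50 µM described here was not tested.

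NRF2, the transcription factor encoded by *Nfe2l2*, is held in the cytoplasm by KEAP1, which presents it to the ubiquitin ligase CUL3 for degradation. Electrophiles and oxidants modify cysteines of KEAP1, NRF2 then accumulates, enters the nucleus and pairs with a small MAF protein on antioxidant response elements of its target genes. Its targets make and recycle glutathione, reduce thioredoxin and peroxiredoxins and degrade heme, and in myeloid cells they buffer the oxidants that the cells themselves release. BACH1 occupies some of the same elements as a repressor, above all at *Hmox1*, and leaves them when it binds heme.

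Promoter sequences from RefSeq (GRCm38.p6), which run from 250 bases before a start site to 50 bases after it, were at hand for 7 of the 10 genes, with 9 promoters in all, because *Txnrd1* has several starts. *Hmox1*, *Gclc* and *Gsr* were not among them. A stricter form of the NRF2 and small MAF consensus, TGANTCAGC on either strand, lay in 3 of the 9 promoters, those of *Prdx1*, *Srxn1* and *Osgin1*. It lay in 1.19% of all 32851 promoters and in 1.07% of those of the genes tested. This motif was chosen after the sequences had been seen. The stretches before the start that no annotated exon overlaps are shown here for these 3 genes, which carry the stricter form. Their 4 libraries at 50 µM lay above all 4 vehicle libraries, though *Srxn1* was not called (edgeR adjusted p = 0.0742). A link between motif and level was not tested, and a motif chosen this way cannot show one. Capitals mark the motif, which starts 133 bases before the start site in *Prdx1*, 45 bases before it in *Srxn1* and 99 bases before it in *Osgin1*, and which reads on the opposite strand in *Prdx1* and *Osgin1*. The start used for *Osgin1* lies inside the gene as GENCODE M21 annotates it.
Prdx1, chr4:116685349-116685543, plus strand: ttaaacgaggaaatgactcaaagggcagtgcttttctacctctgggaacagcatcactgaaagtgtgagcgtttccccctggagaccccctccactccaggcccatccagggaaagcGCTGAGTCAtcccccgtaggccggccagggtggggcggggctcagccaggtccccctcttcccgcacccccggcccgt
Srxn1, chr2:152105274-152105515, plus strand: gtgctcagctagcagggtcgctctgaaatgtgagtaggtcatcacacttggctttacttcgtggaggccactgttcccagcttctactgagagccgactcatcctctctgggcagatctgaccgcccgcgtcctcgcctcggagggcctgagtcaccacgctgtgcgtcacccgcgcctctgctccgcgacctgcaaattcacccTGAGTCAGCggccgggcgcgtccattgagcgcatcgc
Osgin1, chr8:119436897-119437117, plus strand: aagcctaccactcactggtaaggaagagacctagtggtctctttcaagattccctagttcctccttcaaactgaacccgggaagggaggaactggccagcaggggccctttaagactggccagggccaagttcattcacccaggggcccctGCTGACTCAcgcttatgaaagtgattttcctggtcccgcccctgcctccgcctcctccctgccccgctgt

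The looser core of the antioxidant response element, TGACNNNGC on either strand, overlaps the stricter form where its N is C. It lay in 5 of the 9 promoters, and in 12.4% of all promoters. Besides the *Prdx1* site above and a match after the start of *Srxn1*, it was found in *Nfe2l2* itself, in *Gclm* and at the second start of *Txnrd1*. These 3 matches are shown, in capitals, with the bases on either side, because their genes are not among the 3 above. The *Nfe2l2* match starts 240 bases before the start site, that of *Gclm* 134 bases and that of *Txnrd1* 92 bases. Neither motif was found in the promoter of *Keap1*. A match of letters is a description of these windows and does not show that a factor binds there.
Nfe2l2: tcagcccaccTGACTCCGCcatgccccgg
Gclm: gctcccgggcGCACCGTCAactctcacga
Txnrd1: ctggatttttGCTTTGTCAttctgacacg

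The counts per library summed to between 20451312 and 28038612. Genes with more than 0.5 CPM (counts scaled to a common library size by TMM) in at least 2 libraries were tested with edgeR, and a gene was called when its Benjamini-Hochberg adjusted p, over all genes tested, was under 0.05. Of all genes tested, 0.41% were called at 10 µM against vehicle, 13.5% at 50 µM against vehicle and 15.4% at 50 µM against 10 µM (DESeq2 called 1.68%, 17.1% and 18.7%). The comparisons share libraries: both comparisons with vehicle use the same 4 vehicle libraries, and both comparisons of 50 µM use the same 4 libraries at that dose. In bulk RNA, fewer cells of a type and less RNA per cell cannot be told apart. Markers of several cell types moved with IPA. The summed level of 12 macrophage markers ranged from 2513 to 2913 CPM with vehicle, from 3225 to 3759 CPM at 10 µM and from 3462 to 3765 CPM at 50 µM. The markers within this sum went both ways at 50 µM against vehicle: of the 11 tested, 3 rose, *Gpnmb* and *Adgre1* among them, and 3 fell, *Csf1r*, *Fcgr1* and *Mrc1*. *Gpnmb*, the most abundant of them at 50 µM, ranged from 676 to 880 CPM with vehicle and from 1631 to 1802 CPM at 50 µM. That of 10 neutrophil markers ranged from 22874 to 31653, from 21268 to 24321 and from 17150 to 23226 CPM, and that of 5 early granulocyte markers from 1624 to 2347, from 1538 to 1719 and from 776 to 1109 CPM. Erythroid markers were near 0, with a sum of at most 1.23 CPM in any library and *Slc4a1* at 0 in all 12 libraries.

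Per length, as CPM per kilobase of exon (FPKM), *Prdx1*, a peroxiredoxin that reduces hydrogen peroxide, was the most abundant of the 10 with vehicle, at a level of 249 FPKM. *Gsr*, glutathione reductase, followed at 191 FPKM, and *Hmox1* at 106 FPKM and *Nfe2l2* at 91.3 FPKM came next with ranges that overlapped. *Txnrd1* stood at 38.9 FPKM. *Srxn1* at 23.0 and *Gclm* at 22.6 FPKM also overlapped, and below them lay *Keap1* at 11.4, *Gclc* at 9.71 and *Osgin1* at 7.33 FPKM. The lowest *Keap1* library and the highest *Gclc* library both stood at 10.6 FPKM, and the ranges of *Gclc* and *Osgin1* did not overlap. At 50 µM *Osgin1* reached 12.3 FPKM and stood above *Keap1* at 10.5 FPKM and *Gclc* at 9.09 FPKM, without overlap. At 10 µM *Hmox1* stood at 159 FPKM, level with *Gsr* at 159 FPKM. With the principal transcript's length in place of the union of exons, the pairs *Hmox1* and *Nfe2l2*, and *Srxn1* and *Gclm*, changed places with vehicle.

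**Figure D1:**
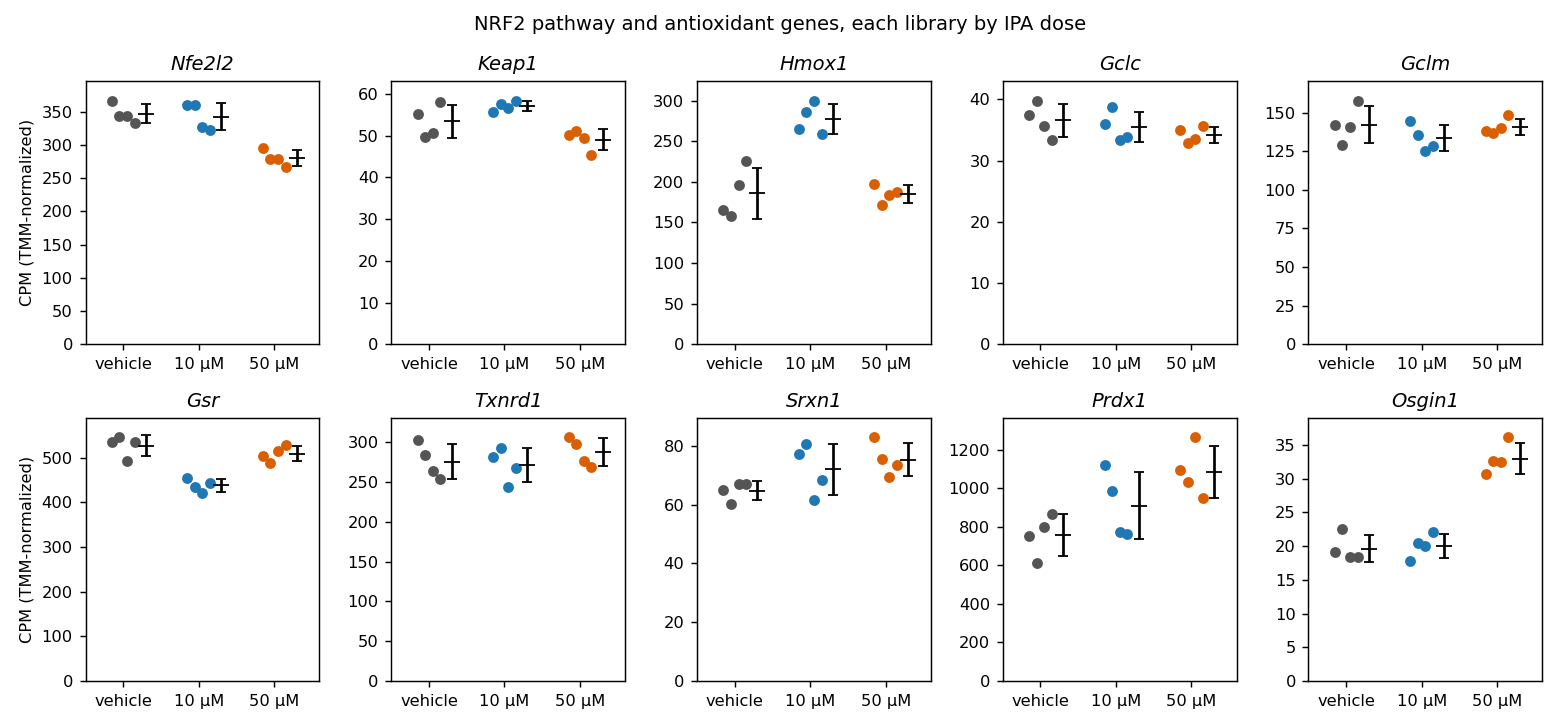
Level in CPM (y axis, from 0) of each of the 10 genes in every library by group (x axis), with the bar beside the points showing the mean ± SD of the 4 libraries. *Hmox1* stands apart at 10 µM, between 259 and 300 CPM, *Osgin1* at 50 µM, between 30.7 and 36.2 CPM, and *Nfe2l2* is lowest at 50 µM, between 266 and 296 CPM.

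The 10 genes did not move together at either dose. At 10 µM against vehicle, 1 of the 10 passed the test, *Hmox1*, which rose (0.41% of all genes tested passed, 0.329% with a rise and 0.0806% with a fall). At 50 µM against vehicle 3 of the 10 passed, *Osgin1* and *Prdx1* with a rise and *Nfe2l2* with a fall (13.5% of all genes, 7% rising and 6.5% falling). At 50 µM against 10 µM 5 of the 10 passed, *Osgin1* and *Gsr* with a rise and *Hmox1*, *Nfe2l2* and *Keap1* with a fall (15.4% of all genes, 7.52% rising and 7.85% falling). The median log2 fold changes of the 10 genes were 0.01, -0.00 and 0.07, beside -0.01, 0.01 and 0.01 over all genes tested. The 4 libraries of a group did not overlap with those of the other in 2, 4 and 5 of the 10 genes, beside 6.13%, 20% and 20.3% of all genes tested.

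**Figure D2:**
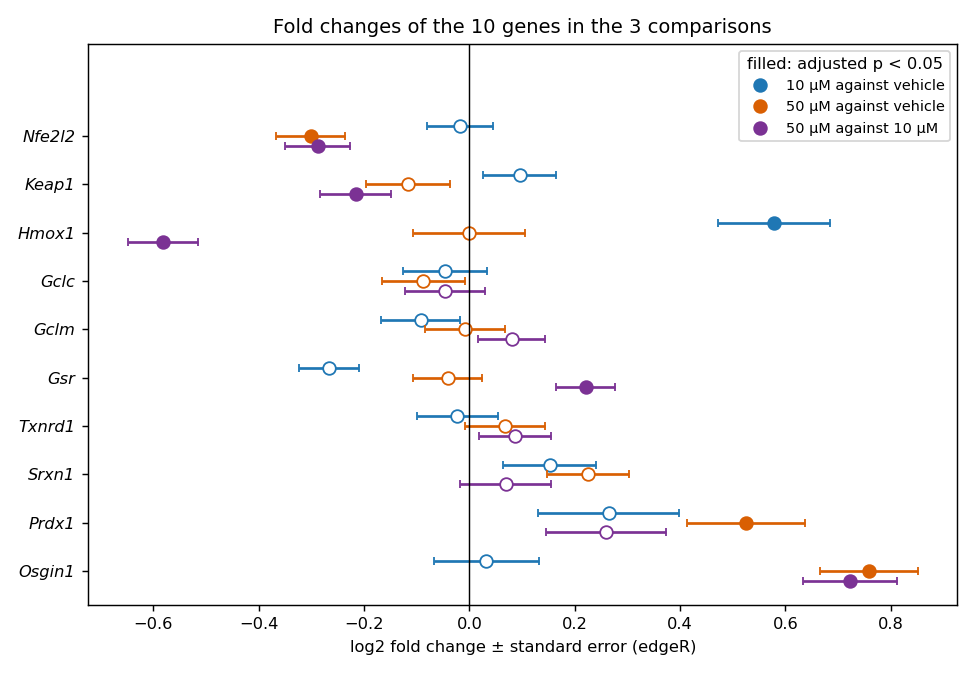
Log2 fold change from edgeR (x axis) with its standard error for each of the 10 genes (y axis) in the 3 comparisons, filled where the adjusted p was under 0.05. *Hmox1* differs at 10 µM by 0.58 and by -0.58 at 50 µM against 10 µM, and the shifts of *Osgin1* (0.76 and 0.72) and *Nfe2l2* (-0.30 and -0.29) are those of 50 µM against both other groups.

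*Nfe2l2* was lower at 50 µM than in both other groups, and *Keap1* was lower than at 10 µM. *Nfe2l2* (chr2:75675513-75704641, minus strand, GRCm38), which encodes NRF2, had levels of 367, 344, 343 and 333 CPM with vehicle. The levels were 360, 360, 327 and 323 CPM at 10 µM, and 296, 279, 279 and 266 CPM at 50 µM. The 50 µM libraries lay below all 8 others, while vehicle and 10 µM overlapped. *Nfe2l2* fell by 0.30 on the log2 scale at 50 µM against vehicle (SE 0.07, edgeR adjusted p = 0.00883), a decrease of 18.8% by the size of the fitted change. Against 10 µM it fell by 0.29 (SE 0.06, adjusted p = 0.00523). The call held when any 1 library was left out. Between 10 µM and vehicle the difference was -0.02 (95% interval -0.15 to 0.12, adjusted p = 0.972). *Keap1* (chr9:21229730-21239361, minus strand), the repressor of NRF2, had levels of 55.2, 49.6, 50.8 and 58.2 CPM with vehicle, 55.7, 57.7, 56.7 and 58.4 CPM at 10 µM and 50.1, 51.2, 49.6 and 45.4 CPM at 50 µM. The libraries at 50 µM lay below those at 10 µM, and the vehicle libraries overlapped with both. *Keap1* was lower at 50 µM than at 10 µM by a log2 difference of -0.22 (SE 0.07, adjusted p = 0.0402). That call was lost whenever any 1 of the 8 libraries was left out, with an adjusted p between 0.0503 and 0.120. Against vehicle the differences of *Keap1* were 0.10 at 10 µM (95% interval -0.06 to 0.25, adjusted p = 0.798) and -0.12 at 50 µM (95% interval -0.29 to 0.06, adjusted p = 0.381).

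*Keap1* overlaps 510 exonic bases of the antisense gene *Gm16754*, which had 310 reads in all libraries against 15428 for *Keap1*. Of 17 further genes that bind, stabilise or degrade NRF2 or share its sites, *Nfe2l1* and *Btrc* rose at 50 µM against vehicle and against 10 µM, and the others did not pass. In these comparisons 13.5% and 15.4% of all genes tested passed. *Nfe2l1*, an NRF2 relative that governs proteasome genes, stood at 185 ± 16.1 CPM with vehicle, 189 ± 5.41 CPM at 10 µM and 253 ± 25.7 CPM at 50 µM (SD, n = 4), a log2 difference of 0.46 at 50 µM (SE 0.09, edgeR adjusted p = 0.00412). *Btrc*, the substrate receptor of a second ubiquitin ligase that marks NRF2, rose by a log2 difference of 0.49 (SE 0.11, adjusted p = 0.00967), from 12.6 ± 1.71 to 17.6 ± 0.72 CPM (SD, n = 4). *Sqstm1*, whose product traps KEAP1, stood at 261 ± 18.6 CPM with vehicle and 280 ± 7.94 CPM at 50 µM (SD, n = 4), a log2 difference of 0.11 (adjusted p = 0.348). The median log2 fold change of the 17 genes at 50 µM was 0.03, beside 0.01 over all genes tested.

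*Hmox1* rose at 10 µM, and at 50 µM its libraries overlapped with those of vehicle. *Hmox1* (chr8:75093621-75100589, plus strand) encodes the inducible heme oxygenase, which splits heme into biliverdin, iron and carbon monoxide. Its levels were 165, 157, 196 and 226 CPM with vehicle, 266, 286, 300 and 259 CPM at 10 µM and 198, 172, 184 and 188 CPM at 50 µM. All 4 libraries at 10 µM lay above the 8 others, and vehicle and 50 µM overlapped. The rise at 10 µM was 1.49-fold, a log2 difference of 0.58 (SE 0.11, edgeR adjusted p = 0.0460). It stood at the edge of the threshold: when 1 library was left out the log2 difference lay between 0.50 and 0.68, but the call held only without vehicle replicate 4, and the adjusted p reached 0.197 without 10 µM replicate 2. The fall from 10 µM to 50 µM, -0.58 (SE 0.07, adjusted p = 2.90e-05), held without any 1 library. Between 50 µM and vehicle the difference was -0.00, with a 95% interval from -0.23 to 0.23 (adjusted p = 0.999).

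Monocyte markers were also highest at 10 µM. The sum of 6 markers of Ly6C-high monocytes lay between 2688 and 3426 CPM with vehicle, between 3839 and 4927 CPM at 10 µM and between 2419 and 3122 CPM at 50 µM. *Fn1* was the most abundant of them, between 1293 and 2957 CPM, and none of the 6 was at 0. Of these 6 markers, *Fn1* passed the test at 10 µM against vehicle with a rise, and 5 passed at 50 µM against 10 µM with a fall. At 50 µM against vehicle *Ccr2*, *F13a1* and *Vcan* fell, in the fit of all 8 libraries and without any 1 of them. The call of *Fn1* at 10 µM was lost without vehicle replicate 1 or without 10 µM replicate 2, and *Ccr2* passed as well without vehicle replicate 4. Most macrophage markers were also lower at 50 µM than at 10 µM: of the 11 tested, 7 fell (*C1qa*, *C1qb*, *C1qc*, *Csf1r*, *Fcgr1*, *Mertk* and *Mrc1*) and 2 rose (*Gpnmb* and *Adgre1*), with 5 to 7 falls when any 1 library was left out. *Mrc1* ranged from 133 to 189 CPM with vehicle, from 212 to 256 CPM at 10 µM and from 80.6 to 112 CPM at 50 µM. *Gpnmb* ranged from 1055 to 1369 CPM at 10 µM, below its levels at 50 µM given above, and the summed macrophage markers at the 2 doses overlapped. Of the 11 macrophage markers tested, 4 passed at 10 µM against vehicle with a rise, but at most 1 did when any library other than vehicle replicate 4 was left out. *Vsig4* had at most 0.436 CPM in any library. The part of monocytes and macrophages in the result for *Hmox1* was not tested.

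**Figure D3:**
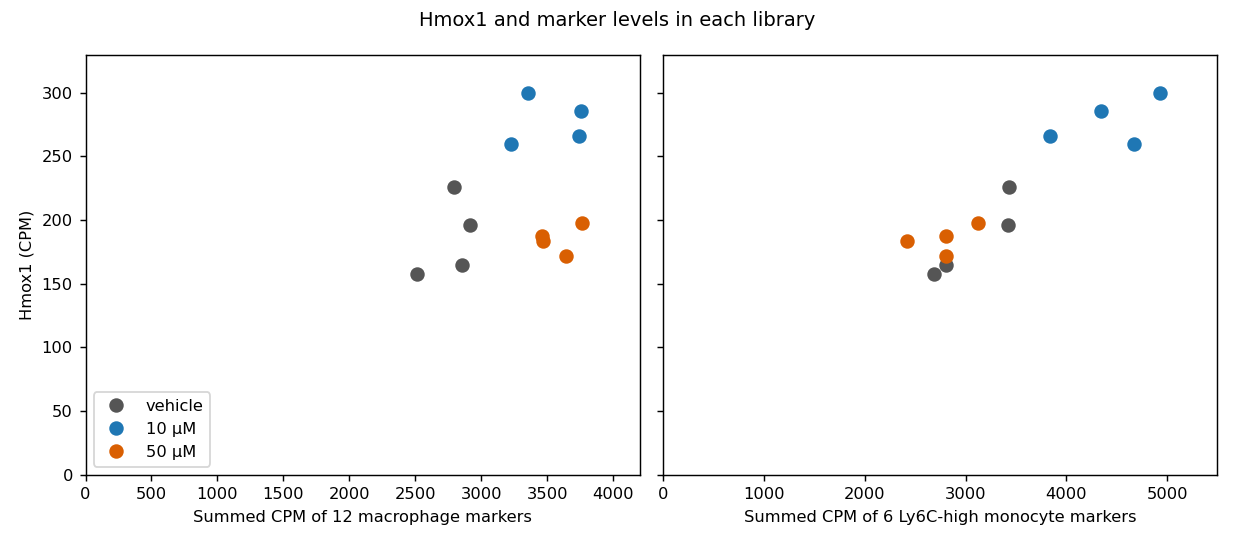
*Hmox1* in CPM (y axis) against the summed CPM of 12 macrophage markers (left) and of 6 Ly6C-high monocyte markers (right) in each library, coloured by group. The libraries at 10 µM hold both the highest *Hmox1*, from 259 to 300 CPM, and the highest monocyte sums, from 3839 to 4927 CPM, whereas the macrophage sums at 10 µM and 50 µM overlap, although 7 of the 11 macrophage markers tested were lower at 50 µM than at 10 µM and 2, among them the abundant *Gpnmb*, were higher.

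Other genes of heme and iron handling moved mainly at 50 µM. Among 13 tested, 4 were higher and 3 lower at 50 µM than with vehicle, and their median log2 difference was 0.12. Over all genes tested, 7% were called higher and 6.5% lower there, and 15.4% passed at 50 µM against 10 µM. *Blvrb*, a biliverdin reductase that acts on the product of heme breakdown, rose by 0.73 (SE 0.12, edgeR adjusted p = 0.00171), from 45.5 ± 8.18 to 75.0 ± 8.71 CPM (SD, n = 4). *Slc48a1*, a heme transporter, rose by 0.46 (adjusted p = 0.00195), and the ferritin chains *Ftl1* and *Fth1* rose by 0.38 each (adjusted p = 0.0142 and 0.0132). The call of *Ftl1* was lost without vehicle replicate 3, with an adjusted p of 0.0562. *Tfrc*, the transferrin receptor, fell by 0.59 (adjusted p = 0.000519), *Slc40a1*, the iron exporter ferroportin, fell by 0.52 (adjusted p = 0.00390), and *Cd163*, the receptor for haptoglobin and hemoglobin, fell by 1.25 on the log2 scale (adjusted p = 0.00371). *Cd163* was low throughout, at 2.99 ± 0.488 CPM with vehicle, 3.71 ± 0.420 CPM at 10 µM and 1.25 ± 0.174 CPM at 50 µM (SD, n = 4). Against 10 µM, 3 rose and 4 fell, and 2 fell without 50 µM replicate 2. *Hpx* and *Spic* were on this list but too low to be tested.

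*Gclc* and *Gclm* did not pass in any comparison. *Gclc* (chr9:77754535-77794485, plus strand), the catalytic subunit of glutamate-cysteine ligase, which sets the rate of glutathione synthesis, had levels of 37.4, 39.8, 35.6 and 33.4 CPM with vehicle, 35.9, 38.7, 33.4 and 33.8 CPM at 10 µM and 35.0, 32.8, 33.5 and 35.6 CPM at 50 µM. *Gclm* (chr3:122245557-122270732, plus strand), its modifier subunit, had 142, 129, 140 and 158 CPM with vehicle, 145, 135, 125 and 128 CPM at 10 µM and 138, 137, 140 and 148 CPM at 50 µM. All 3 groups overlapped for both genes. Between 50 µM and vehicle the log2 difference of *Gclc* was -0.09 (95% interval -0.26 to 0.08, edgeR adjusted p = 0.517) and that of *Gclm* -0.01 (95% interval -0.17 to 0.16, adjusted p = 0.962). At 10 µM the intervals reached from -0.22 to 0.13 for *Gclc* and from -0.26 to 0.07 for *Gclm*. *Gclm* overlaps 296 exonic bases of *Gm17494* on the opposite strand, which had 115 reads in all, and 244 bases of the pseudogene *Gm6061*, which had 0 reads.

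*Gsr* was lowest at 10 µM. *Gsr* (chr8:33652523-33698163, plus strand) encodes the reductase that returns oxidised glutathione to its reduced form. Its levels were 534, 545, 492 and 534 CPM with vehicle, 454, 434, 421 and 442 CPM at 10 µM and 504, 488, 514 and 529 CPM at 50 µM. The libraries at 10 µM lay below all 8 others. Against vehicle the log2 difference at 10 µM was -0.27 (SE 0.06), which did not pass with edgeR (adjusted p = 0.0878) and passed with DESeq2 (adjusted p = 0.000886), which called 1.68% of all genes tested in this comparison. From 10 µM to 50 µM *Gsr* rose by 0.22 (SE 0.06, edgeR adjusted p = 0.0146). That call held in 5 of 8 leave-one-out fits and was lost without 10 µM replicate 2, 10 µM replicate 3 or 50 µM replicate 4, with an adjusted p of at most 0.0527. From vehicle to 50 µM *Gsr* differed by -0.04 (95% interval -0.18 to 0.10, adjusted p = 0.731).

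Of 24 further glutathione genes tested, 5 rose and 1 fell at 50 µM against vehicle, and the median of the list was 0.19 on the log2 scale. Over all genes tested, 7% rose and 6.5% fell there, and 15.4% passed at 50 µM against 10 µM. *Chac1*, which degrades glutathione, rose by 1.02 (SE 0.17, edgeR adjusted p = 0.00143), and *Gss*, which performs the last step of its synthesis, rose by 0.52 (SE 0.13, adjusted p = 0.0207). *Slc3a2*, the heavy chain of the cystine and other amino acid exchangers, rose by 0.31 (adjusted p = 0.00670), *Gpx4*, the phospholipid hydroperoxidase, by 0.43 (adjusted p = 0.0250), and *Hagh* passed as well. The call of *Gss* was lost without vehicle replicate 3, 50 µM replicate 2 or 50 µM replicate 3, that of *Gpx4* without any of these or vehicle replicate 1 or 2, and that of *Hagh* without any 1 library. *Ggt1*, which cleaves extracellular glutathione, fell by 0.63 (adjusted p = 0.00462). Those that rose thus included an enzyme that breaks glutathione down and one that builds it. The count of rises was 2 without vehicle replicate 3, 50 µM replicate 2 or 50 µM replicate 3, and 3 without vehicle replicate 1. *Gpx1*, the most abundant of the list by CPM, stood at 688 ± 103 CPM with vehicle, 720 ± 105 CPM at 10 µM and 674 ± 70.7 CPM at 50 µM (SD, n = 4). Compared with 10 µM, 5 rose and 2 fell at 50 µM, *Mgst2* passing in place of *Hagh* and *Mgst3* falling with *Ggt1*. There the rises were 3 without 10 µM replicate 2, 3 or 4 or without 50 µM replicate 3, and the falls were 1 without 10 µM replicate 1 or 50 µM replicate 2 and 3 without 10 µM replicate 4. With 1 library left out, *Mgst2* passed only without 50 µM replicate 1 or 2, and *Mgst3* was lost without 10 µM replicate 1, 50 µM replicate 1 or 50 µM replicate 2.

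Among the thioredoxin and peroxiredoxin genes, *Prdx1* rose at 50 µM. *Prdx1* (chr4:116685544-116700822, plus strand) had levels of 752, 611, 801 and 866 CPM with vehicle, 1119, 985, 771 and 763 CPM at 10 µM and 1095, 1031, 1266 and 950 CPM at 50 µM. The 50 µM libraries lay above all vehicle libraries, while at 10 µM replicates 1 and 2 lay in the range of 50 µM and replicates 3 and 4 in that of vehicle. Against vehicle *Prdx1* rose 1.44-fold at 50 µM, a log2 difference of 0.53 (SE 0.11, edgeR adjusted p = 0.00764), and this held without any 1 library. At 10 µM the difference was 0.26 (SE 0.13, adjusted p = 0.634). Between the doses it was also 0.26 (SE 0.11, adjusted p = 0.142), and it passed without 10 µM replicate 1 (adjusted p = 0.0167).

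*Prdx1* shares near-identical sequence with the processed pseudogenes *Gm21399* and *Gm7204*, so the split of reads among them is uncertain. Together they held 20921 reads over all libraries, against 263622 for *Prdx1*. *Gm21399* differed by 0.54 at 50 µM against vehicle (edgeR adjusted p = 0.00648) and *Gm7204* by 0.50 (adjusted p = 0.0271). Both thus lay close to the 0.53 of *Prdx1*.

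*Srxn1* and *Txnrd1* did not pass. *Srxn1* (chr2:152105516-152111376, plus strand), sulfiredoxin, repairs peroxiredoxins that have been oxidised too far. It had 65.1, 60.1, 67.0 and 67.0 CPM with vehicle, 77.3, 80.8, 61.7 and 68.4 CPM at 10 µM and 83.0, 75.6, 69.4 and 73.5 CPM at 50 µM. The libraries at 50 µM lay above those with vehicle, by a log2 difference of 0.23 (SE 0.08, edgeR adjusted p = 0.0742), which passed only without vehicle replicate 4. At 10 µM the difference was 0.15 (SE 0.09, adjusted p = 0.705), and replicates 1 and 2 were again higher than replicates 3 and 4. *Txnrd1* (chr10:82833951-82897712, plus strand), the cytosolic thioredoxin reductase, had 302, 284, 264 and 253 CPM with vehicle, 282, 293, 244 and 268 CPM at 10 µM and 306, 298, 276 and 269 CPM at 50 µM. All 3 groups overlapped, and the log2 differences from vehicle were -0.02 at 10 µM (95% interval -0.19 to 0.14) and 0.07 at 50 µM (95% interval -0.10 to 0.23).

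Of 17 further genes of this system, *Sesn2* and *Txndc17* rose at 50 µM against vehicle, and the median log2 fold change was 0.17. Over all genes tested, 13.5% passed in that comparison and 15.4% at 50 µM against 10 µM. *Sesn2*, a sestrin induced by several stresses, rose from 74.7 ± 1.85 to 105 ± 6.85 CPM (SD, n = 4), a log2 difference of 0.50 (SE 0.07, edgeR adjusted p = 0.0005). *Txndc17*, a thioredoxin-like reductase, rose by 0.35 (adjusted p = 0.0206). The count of rises was 6 without vehicle replicate 4, and 1 without vehicle replicate 1, vehicle replicate 3 or 50 µM replicate 3. The other peroxiredoxins with high CPM, *Prdx5* and *Prdx6*, differed by 0.24 and 0.17 (adjusted p = 0.101 and 0.172). *Prdx4*, the peroxiredoxin of the endoplasmic reticulum, stood at 30.2 ± 3.93 CPM with vehicle, 38.9 ± 5.08 CPM at 10 µM and 28.4 ± 2.74 CPM at 50 µM (SD, n = 4). It was lower at 50 µM than at 10 µM by a log2 difference of -0.45 (SE 0.10, adjusted p = 0.00631). In that comparison *Prdx4* was the 1 fall of the list, and 4 rose, *Prdx3*, *Sesn1*, *Sesn2* and *Sesn3*. The rises were 2 without 10 µM replicate 2, 50 µM replicate 3 or 50 µM replicate 4, and 1, *Sesn2*, without 10 µM replicate 3, 10 µM replicate 4 or 50 µM replicate 2, and the falls were 3 without 50 µM replicate 3.

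*Osgin1* showed the largest change of the 10 genes against vehicle. *Osgin1* (chr8:119434124-119446256, plus strand), the oxidative stress induced growth inhibitor, had levels of 19.1, 22.6, 18.5 and 18.3 CPM with vehicle, 17.8, 20.4, 20.0 and 22.1 CPM at 10 µM and 30.7, 32.6, 32.4 and 36.2 CPM at 50 µM. All 4 libraries at 50 µM lay above the 8 others, and vehicle and 10 µM overlapped. It was the lowest of the 10 genes per length with vehicle, and 412 to 890 reads per library stood behind these values. The rise at 50 µM was 1.69-fold against vehicle, a log2 difference of 0.76 (SE 0.09, edgeR adjusted p = 0.000175), and 1.65-fold against 10 µM, a log2 difference of 0.72 (SE 0.09, adjusted p = 5.08e-05). Both held without any 1 library. From vehicle to 10 µM the difference was 0.03 (95% interval -0.19 to 0.25, adjusted p = 0.967).

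Other genes known as NRF2 targets rose and fell at 50 µM. Of 29 listed, 26 were tested, and *Gsta4*, *Aox1* and *Gpx2* were too low. The 50 µM libraries had 7 of them higher than vehicle and 2 lower, beside 7% and 6.5% of all genes tested. The list's median was 0.22 on the log2 scale, beside 0.01 over all genes tested. *Nqo1*, a quinone reductase used widely as a readout of NRF2, stood at 23.7 ± 3.03 CPM with vehicle, 22.0 ± 2.43 CPM at 10 µM and 37.7 ± 4.41 CPM at 50 µM (SD, n = 4). It rose by 0.68 against vehicle (SE 0.11, edgeR adjusted p = 0.00141) and by 0.77 against 10 µM (SE 0.10, adjusted p = 8.90e-05). *Idh1*, a cytosolic source of NADPH, rose by 0.70 against vehicle (SE 0.07, adjusted p = 4.40e-05), from 138 ± 9.40 to 222 ± 5.10 CPM (SD, n = 4). *Hspa1b*, an inducible heat shock protein gene, rose by 0.55 (adjusted p = 0.0214), *Akr1b8*, an aldo-keto reductase, by 0.55 (adjusted p = 0.0379) and *Esd*, an esterase that also acts on glutathione conjugates, by 0.44 (adjusted p = 0.0181), and *Cat* and *Trp53inp1* passed as well. The call of *Hspa1b* was lost without 50 µM replicate 1, that of *Esd* without vehicle replicate 1, vehicle replicate 3 or 50 µM replicate 3, that of *Trp53inp1* without vehicle replicate 1, 50 µM replicate 3 or 50 µM replicate 4, and that of *Akr1b8* without replicate 1, 2 or 3 of either group. *Abcc4*, an exporter of organic anions, fell by 0.69 (SE 0.09, adjusted p = 0.000175), and *G6pdx* fell too. *Tkt* and *Pgd*, enzymes of the pentose phosphate pathway and the most abundant of the list by CPM, differed by -0.06 and -0.00 (adjusted p = 0.610 and 0.986). The count of rises was 4 without vehicle replicate 1. Against 10 µM, 5 rose and 1 fell at 50 µM.

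At 50 µM the pathway list with the highest share of calls was that of ATF4 and its targets. ATF4 is the transcription factor of the integrated stress response. The lists were chosen with earlier results of these data known, so this rank is only a description. Of 12 tested, 10 rose at 50 µM against vehicle, beside 7% of all genes tested. The median of the list was 0.58 on the log2 scale. The count was 10 of 12 against 10 µM as well, and between 9 and 10 rose when any 1 library was left out. *Sesn2* and *Chac1* are also on the lists above. *Cth*, which makes cysteine, was listed at 1.40 ± 0.440 CPM with vehicle, 1.37 ± 0.304 CPM at 10 µM and 29.0 ± 6.73 CPM at 50 µM (SD, n = 4), a log2 difference of 4.38 at 50 µM against vehicle (SE 0.23, edgeR adjusted p = 1.90e-07). *Trib3* rose by 1.33 (SE 0.17, adjusted p = 0.000285), *Asns*, asparagine synthetase, by 1.00 (SE 0.11, adjusted p = 7.59e-05), *Ddit3* by 0.99 (adjusted p = 0.00199) and *Atf4* itself by 0.50 (adjusted p = 0.000851). *Slc7a11*, the cystine importer that is a target of both NRF2 and ATF4, stood at 224 ± 25.9 CPM with vehicle, 225 ± 26.4 CPM at 10 µM and 205 ± 19.6 CPM at 50 µM (SD, n = 4), a log2 difference of -0.12 (95% interval -0.32 to 0.08, adjusted p = 0.445).

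Of the genes that make or remove superoxide, *Cybb*, *Rac1* and *Ncf1* passed with edgeR in some comparison. The share of all genes tested that passed was 13.5% at 50 µM against vehicle and 15.4% at 50 µM against 10 µM. None of 7 genes for superoxide dismutases and mitochondrial antioxidants passed with edgeR or DESeq2 in any comparison, and at an unadjusted p under 0.05 there was 1 at 50 µM against vehicle. *Sod2*, the mitochondrial dismutase, differed by -0.13 at 50 µM against vehicle (adjusted p = 0.286). Of 9 genes of the phagocyte NADPH oxidase, *Cybb*, its catalytic subunit, fell at 50 µM, from 2000 ± 40.7 CPM with vehicle to 1546 ± 86.8 CPM, with 1806 ± 15.7 CPM at 10 µM (SD, n = 4). The log2 difference from vehicle was -0.36 (SE 0.07, edgeR adjusted p = 0.0028). Against 10 µM *Cybb* and *Rac1* fell and *Ncf1* rose, but the call of *Cybb* was lost without 50 µM replicate 2, that of *Rac1* without 10 µM replicate 2, and that of *Ncf1* without 10 µM replicate 2 or 50 µM replicate 4.

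**Figure D4:**
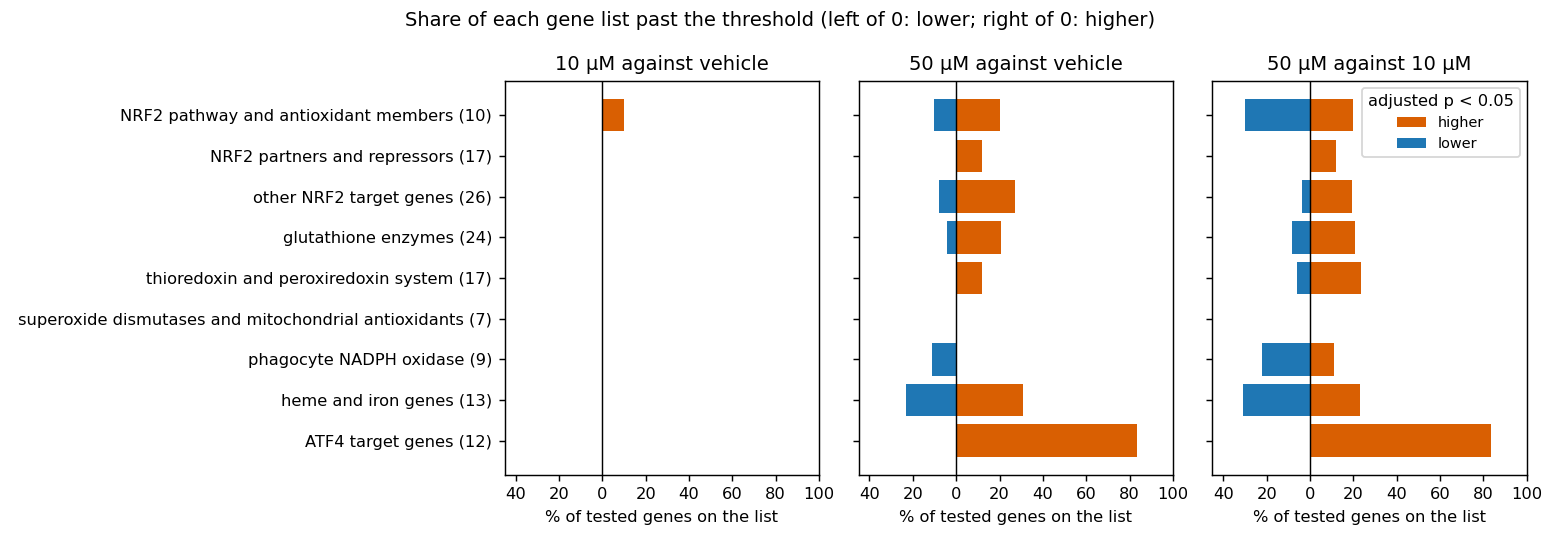
Share of the tested genes of each list (number in parentheses) that passed an adjusted p of 0.05 in edgeR, with a rise to the right of 0 and a fall to the left (x axis, % of tested genes), in the 3 comparisons. At 10 µM against vehicle only *Hmox1* is shown. At 50 µM against vehicle the list of ATF4 and its targets has 10 of 12 rising, beside 2 rises and 1 fall among the 10 NRF2 pathway genes. The members and the lists were chosen with earlier results of these data known.

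At 10 µM against vehicle none of the 122 distinct genes on these other lists passed with edgeR, beside 0.41% of all genes tested. At an unadjusted p under 0.05 there were 13, and DESeq2 called 4, *Akr1b8*, *Atf3* and *Idh1* with a rise and *Cybb* with a fall. Of the 122, 28 rose and 7 fell at 50 µM against vehicle, and against 10 µM 28 rose and 10 fell. The shares of all genes tested that passed were 13.5% and 15.4%. The falls against 10 µM were 6 without 50 µM replicate 2. Cell type markers moved at 50 µM as well: all 5 early granulocyte markers and 4 of 10 neutrophil markers fell against vehicle, with 6 falls, *S100a8* and *S100a9* added, without 50 µM replicate 3 and 2 rises, *Ly6g* and *Mmp8*, beside the 4 falls without vehicle replicate 4. The fall of 3 of 6 Ly6C-high monocyte markers is given above. Of 7 dendritic cell markers 3 rose, but 1 did without vehicle replicate 3 or 50 µM replicate 2 and 2 without vehicle replicate 1, 50 µM replicate 1 or 50 µM replicate 3. All 4 B cell markers rose, with a summed level between 14.9 and 20.9 CPM with vehicle and between 30.7 and 47.5 CPM at 50 µM. The part of these cell types in the changes at 50 µM was not tested.

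The genes whose log2 CPM followed each of the 10 most closely over the 12 libraries differed from gene to gene. These are correlations over libraries that share groups and normalization, given as a description. For *Nfe2l2* they were *Slc16a10* (an aromatic amino acid transporter, Pearson's r = 0.964) and *H13* (r = 0.959). For *Hmox1* they were *Tmem189* (r = 0.971), *Sdc3* (syndecan 3, r = 0.958) and *F7* (coagulation factor VII, r = 0.946). *Sdc3* stood at 197 CPM with vehicle, 287 CPM at 10 µM and 191 CPM at 50 µM, and *F7* at 109, 142 and 106 CPM, so that both were highest at 10 µM. For *Prdx1* they were *Esd* (r = 0.977), *Fth1* (r = 0.975) and *Psmb2* (a proteasome subunit, r = 0.969), of which *Esd* and *Fth1* are on the lists above. For *Osgin1* they were *Lama5* (a laminin chain, r = 0.983), *Pmaip1* (encoding NOXA, r = 0.972) and *Amotl2* (r = 0.965). *Lama5* stood at 6.86, 7.11 and 24.1 CPM and *Pmaip1* at 52.9, 52.3 and 86.0 CPM in the 3 groups. For *Keap1* they were *Fpgt*, *Mfap3* and *Snx1* (r between 0.918 and 0.922), and for *Gsr* *Dalrd3*, *Gnl3l* and *Gpr146* (r between 0.856 and 0.892). For *Gclc* they were *Gm3807*, *Blzf1* and *Gm42548*, for *Gclm* *Leprotl1*, *St6galnac4* and *Ecsit*, for *Txnrd1* *Rap1gap*, *Nrg1* and *Mtmr14*, and for *Srxn1* *Gm35037*, *Tnfaip1* and *Pros1*. No gene was the closest match of more than 1 of the 10.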

How the data were processed

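Bulk RNA-seq was analysed in 12 libraries, 4 per group. Per the labels, libraries were prepared with Illumina Stranded mRNA Prep, and sequencing, by the methods, was on an AVITI. The authors used Atropos for trimming, HISAT2 (2.2.1) for alignment to mm10 and featureCounts (2.0.1) on Ensembl genes. The deposited values are raw counts without normalization or filter. Whether counting used strand is not given in the sources used here. Replicate 3 at 10 µM carries the title of replicate 2 and was identified by the name of its library. All 12 sample columns were used.

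Genes above 0.5 CPM in 2 or more of the 12 libraries were tested with edgeR 4.0.16 (TMM, glmQLFit, glmQLFTest) in R 4.3.3, each comparison on its 8 libraries, with Benjamini-Hochberg adjustment over 14894 genes and a threshold of 0.05. Standard errors were derived from the F statistic, and 95% intervals from the test's degrees of freedom. CPM were scaled by TMM over all libraries, and CPM per kilobase used the union of exons of GENCODE M21. Intervals and tests reflect counting error and the spread between 4 libraries. The script was tested on simulated data.

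The alternatives were DESeq2 1.42.0, limma-voom 3.58.1, edgeR with size factors from DESeq2, the whole table without a filter, a minimum of 10 counts in each library, all 12 libraries in 1 fit, a replicate block, an offset for exon length (lowess, span 0.3) and leaving out each library. The principal transcript's length was added after the data had been seen. Copies were genes with at least 95% identity over at least 100 bases. The members and the lists were chosen with earlier results of these data known. From each other list, the text draws on the genes that passed in any comparison, at most 6 by size of change, and the 2 with the highest mean CPM, and it names others that passed without values. For each member the 3 genes with the highest Pearson correlation of log2 CPM (prior count 2) are named, except 1 that is not reported here.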

Additional observations from a re-analysis of the deposited data

How the results depend on the processing

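At 10 µM against vehicle the number of the 10 genes called was 2 with DESeq2 and with all 12 libraries in 1 fit (*Hmox1* and *Gsr*), 0 with the replicate block, and between 0 and 1 when 1 library was left out. The number of all genes called in this comparison, 61, was 250 with DESeq2, 150 without the filter, 3 with the replicate block, 94 with the offset for exon length, 118 with all 12 libraries, and between 4 (without 10 µM replicate 2) and 122 (without vehicle replicate 4) with 1 library left out. At 50 µM against vehicle 3 of the 10 genes were called under each of the 8 alternatives that kept all libraries, always *Nfe2l2*, *Osgin1* and *Prdx1*, and 3 to 4 with 1 library left out. All genes called there ranged from 1248 (without vehicle replicate 3) to 2689 (without vehicle replicate 4). At 50 µM against 10 µM between 3 and 5 of the 10 were called with 1 library left out. The 3 were *Hmox1*, *Nfe2l2* and *Osgin1*, without 10 µM replicate 2, 10 µM replicate 3 or 50 µM replicate 4. There *Keap1* was lost without the filter (adjusted p = 0.0887) and with the replicate block (adjusted p = 0.0641), and *Prdx1* was gained without the filter (adjusted p = 0.00283). The causes were not tested.

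Signs turned only where the difference was near 0 and not called. *Txnrd1* at 10 µM against vehicle was 0.0082 with the offset for exon length. *Hmox1* at 50 µM against vehicle was 0.0139 with limma-voom, 0.0052 with at least 10 counts in every library and 0.0136 with the replicate block. *Gclm* there was 0.0010 with the offset. With 1 library left out, the log2 differences at 10 µM against vehicle ranged from -0.0429 to 0.012 for *Nfe2l2*, from -0.0613 to 0.026 for *Txnrd1* and from -0.0144 to 0.1065 for *Osgin1*, and at 50 µM against vehicle from -0.0798 to 0.107 for *Hmox1* and from -0.0599 to 0.0461 for *Gclm*.

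Libraries with the same replicate number showed no common deviation: the correlations of their deviations from the group means lay between -0.242 and 0.142. These correlations cannot exclude that the number marks a pairing. The labels do not say, and the paper used a repeated measure ANOVA for its flow cytometry of this culture assay. With the replicate block 1830 and 2200 genes were called at 50 µM against vehicle and against 10 µM, and 3 and 4 of the 10. With 4 libraries a group, a difference of the size of the intervals given cannot be told from none.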
